A study of Ovis aries with 16 samples.

Results

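Ketamine blocks the NMDA receptor, a glutamate-gated channel through which calcium enters neurons, and it is given as an anaesthetic. Hypoxia in the fetal brain is known to activate astrocytes and microglia and to raise innate immune transcripts such as complement, toll-like receptors and chemokines. The question addressed here was whether the difference that ketamine made to each transcript of the fetal frontal cortex was the same after hypoxia as in normoxia. It was answered with the interaction, which is the ketamine minus control difference in hypoxia minus the same difference in normoxia, on the log2 scale. A negative interaction means that the ketamine difference was lower in hypoxia than in normoxia, and a positive interaction means that it was higher.

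All 16 arrays of the series, of 16 in all, entered the contrast. Each array held frontal cortex RNA of 1 late gestation fetal sheep with chronic catheters, collected 24 h after the start of a 30 min period of either normoxia or maternal ventilatory hypoxia, that is, after 23.5 h of recovery. The normoxia control group had 3 fetuses and received no ketamine. The normoxia + ketamine group had 4 fetuses given 3 mg/kg intravenously beforehand. The hypoxia control group had 5 fetuses without ketamine, and the hypoxia + ketamine group had 4 fetuses given the same dose before the hypoxia. Most fetuses were twins, and the sources used here do not say which of them shared a ewe. The tissue is whole cortex, so fewer cells of a type and less RNA per cell cannot be told apart.

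The arrays were on 2 slides, with every group on both. Slide 2 held 1 normoxia control, replicate 3, so values given for slide 2 alone rest on that fetus for its group. Between 69.2 and 76.9% of the spots of an array were well above background. The labels of hypoxia control replicate 1 conflict, since its title and code give hypoxia without ketamine and other fields give normoxia with ketamine, and it was kept as hypoxia control. With it read as normoxia + ketamine, 871 of the 953 called probes described next were called again. The astrocyte gene GFAP and the NMDA receptor gene GRIN1 were well above background on all 16 arrays. No gene of the neuron list or of the oligodendrocyte list was found on the array by its name, so these cells could not be checked by their markers.

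Of 15008 probes tested, 953 were called for the interaction at the unadjusted P under 0.05 that the study's methods use, which is 6.35% of the array. The interaction was higher for 591 probes (3.94%) and lower for 362 (2.41%). A threshold of 0.05 passes 750.4 of 15008 probes where no probe differs. No probe passed after Benjamini-Hochberg adjustment in limma, and the lowest adjusted P was 0.734. Every gene called below therefore stands at the unadjusted threshold only, and its adjusted P lay between 0.734 and 0.779. The split depended on the scaling, since 62.0% of calls were higher after quantile normalization, 49.3% when the processed signal was scaled to each array's 75th percentile, and 52.5% when the background-corrected signal was scaled in that way, or 39.7% when spots with an outlying local background were also given their array's median background. The median size of a called interaction was 0.33, and 11 probes with a higher and 22 with a lower interaction reached a size of 1, which is a 2-fold difference between the ketamine ratios.

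Ketamine differed from control at the same threshold in 9.06% of probes in hypoxia and in 2.31% in normoxia. The normoxia share is below what a threshold of 0.05 passes where no probe differs. The hypoxia and normoxia differences share no arrays. They had opposite signs for 96.4% of the probes with a higher interaction and for 96.1% of those with a lower one, against 54.9% of all probes. A call for the interaction favours opposite signs by its construction, so nothing is read from these shares. Among the called probes, 26 with a higher and 11 with a lower interaction passed in both oxygen conditions, in opposite directions. In the others the call came from a clear difference in 1 condition or from 2 smaller ones, as 178 of the higher and 87 of the lower probes passed in neither condition alone.

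**Figure D1:**
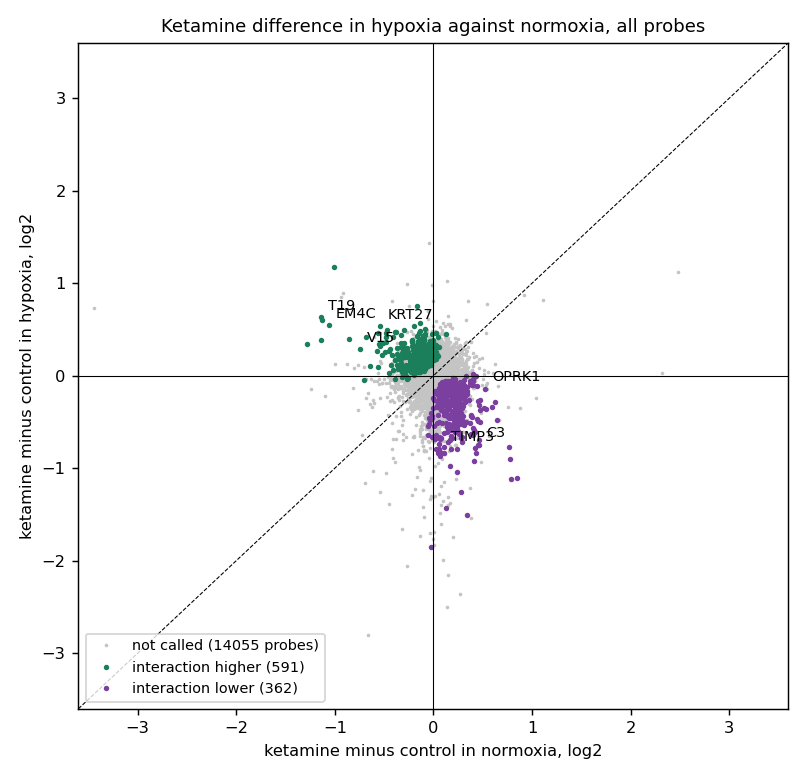
Ketamine minus control difference (log2) in normoxia on the horizontal axis and in hypoxia on the vertical axis for 15008 probes, with equal differences on the dashed diagonal. The 591 probes with a higher interaction lie above and left of the diagonal, the 362 with a lower interaction lie below and right of it, and 14055 probes were not called.

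With 1 probe for each of 1025 named genes, 72 genes were called (7.02%), of which 37 were higher (3.61%) and 35 lower (3.41%). The 24 genes with the largest called interactions, 12 in each direction, are shown by their ketamine difference in each condition. In the 12 lower genes ketamine was lower than control in hypoxia, called for 11 of them, whereas the normoxia difference was called for C3 alone. In the 12 higher genes the hypoxia difference was above 0 and the normoxia difference below 0, with calls for 6 genes in hypoxia and 3 in normoxia. Of all 1025 named genes, 10.2% were called for ketamine in hypoxia (3.51% higher, 6.73% lower) and 3.02% in normoxia (1.37% higher, 1.66% lower), and the choice of the 24 by their interaction favours such calls.

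**Figure D2:**
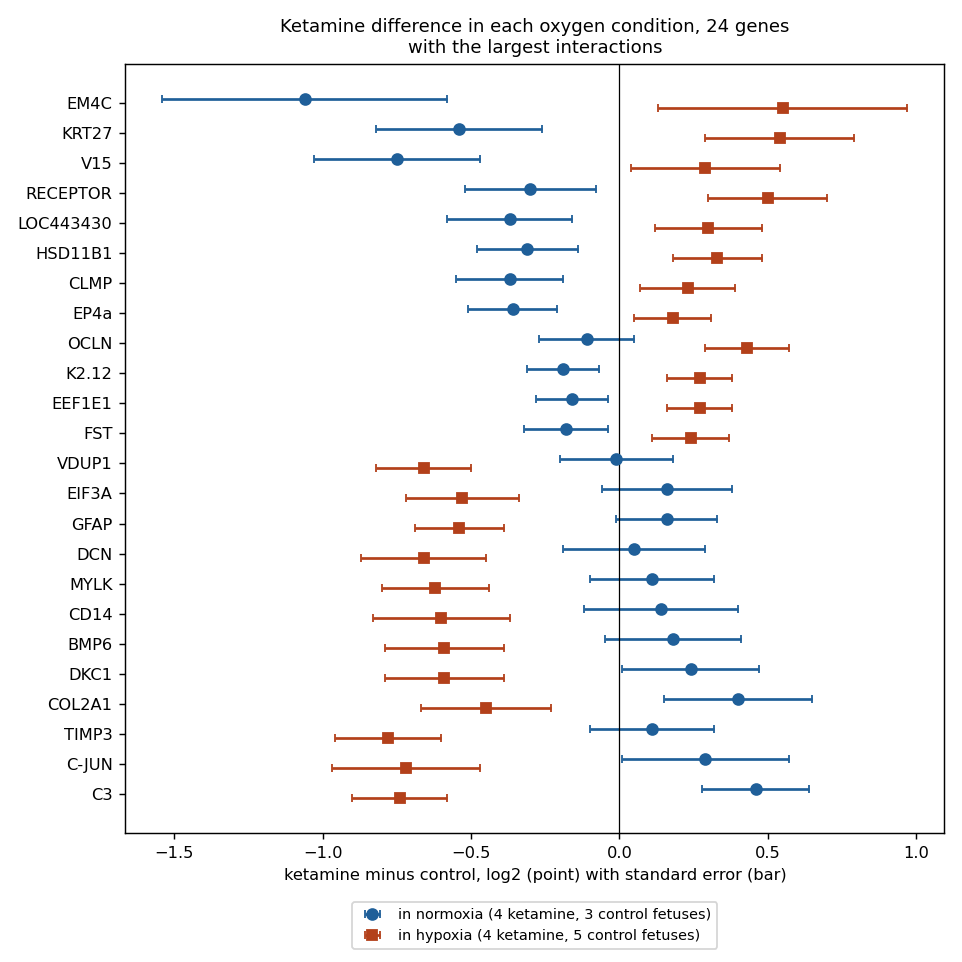
Ketamine minus control difference (log2, horizontal axis) with its standard error in normoxia (circles) and in hypoxia (squares) for the 24 genes with the largest called interactions, ordered by the interaction. The 2 differences lie on opposite sides of 0 for 23 genes, and VDUP1 is the exception with -0.66 in hypoxia and -0.01 in normoxia.

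Among called genes with a name, the largest interaction in the lower direction was that of C3, the central component of the complement cascade, which is cleaved in all complement pathways and tags targets for phagocytes. The mean C3 level was higher with ketamine than without it in normoxia, and lower with ketamine after hypoxia. The array carries 2 probes for C3, both designed on a partial coding sequence, and their sequences as deposited (5′ to 3′) are shown because they are separate measurements of the transcript: their longest shared stretch was 5 bases.
C3, probe A_70_P041826: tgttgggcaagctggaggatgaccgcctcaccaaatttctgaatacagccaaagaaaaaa
C3, probe A_70_P041827: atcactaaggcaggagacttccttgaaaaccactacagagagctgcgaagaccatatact

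On the first C3 probe the normalized log2 values were 12.95, 13.19 and 13.03 in the normoxia controls and 13.17, 13.64, 13.87 and 13.37 in the normoxia + ketamine fetuses. They were 13.86, 13.34, 13.60, 13.04 and 13.60 in the hypoxia controls and 12.95, 12.62, 12.61 and 12.80 in the hypoxia + ketamine fetuses. All hypoxia + ketamine fetuses thus lay below all hypoxia controls, while in normoxia the lowest ketamine fetus lay just below the highest control. The ketamine difference was -0.74 (standard error 0.16) in hypoxia, a ratio of 0.597, and 0.46 (standard error 0.18) in normoxia, a ratio of 1.37. The interaction was -1.20 (standard error 0.24, limma unadjusted P = 0.00016, adjusted P = 0.734), with p = 0.00091 in a two-sided exact permutation test that exchanged ketamine labels within each oxygen condition. For the ketamine difference alone, the same permutation gave p = 0.016 in hypoxia and p = 0.11 in normoxia.

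On the second C3 probe the values were 12.16, 12.24 and 12.16 in the normoxia controls, 12.25, 12.76, 13.13 and 12.45 in the normoxia + ketamine fetuses, 12.74, 12.47, 12.90, 12.33 and 12.86 in the hypoxia controls, and 12.10, 11.81, 11.93 and 12.01 in the hypoxia + ketamine fetuses. Here the groups did not overlap in either condition, lower with ketamine in hypoxia and higher in normoxia, which held for 3 of 15008 probes (0.02%). The interaction was -1.16 (standard error 0.23). The exact permutation p was 0.00045, the smallest that the 4410 arrangements can give. That p follows from the lack of overlap, for which the probe was named, so it is not separate support. With no ketamine difference 1 probe in 4410 would show this order, a share close to the 0.02% seen. The interaction was called on both probes with any 1 array left out, and on the first it then lay between -1.31 and -1.08. On slide 1 alone it was -1.15 and -0.96, and on slide 2 alone -1.30 and -1.35. C3 was the called gene among 8 genes of the complement and coagulation list on the array, where 3.41% of named genes were called lower. The median interaction of that list was -0.17 against 0.0177 over all probes. A probe that the files name C5aR, not matched to the list by that name, was also called, at -0.63. Another C5aR probe that shares 59 bases with it had -0.57 and was not called.

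OPRK1, which encodes the kappa opioid receptor, an inhibitory G protein-coupled receptor for dynorphins, also had a lower interaction, but here the difference lay in normoxia. Its 2 probes come from a partial coding sequence and are printed because they are nearly the same molecule: capitals mark the 59 of 60 bases that they share, so that their results are not separate evidence.
OPRK1, probe A_70_P068271: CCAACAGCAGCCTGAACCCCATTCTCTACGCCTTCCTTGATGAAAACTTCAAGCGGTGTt
OPRK1, probe A_70_P068272: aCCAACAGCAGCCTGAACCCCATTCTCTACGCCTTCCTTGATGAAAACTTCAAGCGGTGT

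On probe A_70_P068271, OPRK1 was 8.08, 8.18 and 8.13 in the normoxia controls and 8.73, 8.57, 8.42 and 8.89 in the normoxia + ketamine fetuses, so every ketamine fetus lay above every control. Groups did not overlap in normoxia, in either direction, for 4.47% of all probes. The exact permutation p for normoxia alone was 0.057, the smallest that these fetuses can give. The same share stands beside each lack of overlap in normoxia given below, and the choice of probes by their interaction favours it. In hypoxia the values overlapped, with 8.27, 8.05, 8.76, 8.44 and 8.36 in the controls and 8.32, 8.03, 8.37 and 8.22 with ketamine. The ketamine difference was 0.52 (standard error 0.14) in normoxia and -0.14 (standard error 0.12) in hypoxia. The interaction was -0.66 (standard error 0.19, limma unadjusted P = 0.0033), with p = 0.012 in the exact permutation test, and -0.55 on the other probe. It lay between -0.74 and -0.57 with each array left out and was called each time. ADRB1, the beta 1-adrenergic receptor gene, had an interaction of -0.24 (standard error 0.091), or -0.17 and no call without normoxia control replicate 3. It was the other called gene of 22 neuropeptide, opioid and monoamine receptor genes, where 3.41% of named genes were called lower. The median of that list was 0.03. A dimmer probe of its oxytocin receptor gene OXTR, not counted, was called higher at 0.30.

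GRIN1 encodes the obligatory NR1 subunit of the NMDA receptor. The array has 2 probes named GRIN1, which share 59 of 60 bases (capitals), and another probe that the files name NR1, whose longest stretch shared with either of them was 5 bases. They are shown because the NR1 probe is a separate measurement of the subunit.
GRIN1, probe A_70_P002821: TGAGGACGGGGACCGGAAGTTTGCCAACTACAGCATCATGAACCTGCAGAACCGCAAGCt
GRIN1, probe A_70_P002822: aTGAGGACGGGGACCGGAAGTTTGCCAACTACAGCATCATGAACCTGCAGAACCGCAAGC
NR1, probe A_70_P002761: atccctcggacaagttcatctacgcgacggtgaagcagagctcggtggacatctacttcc

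On probe A_70_P002822, GRIN1 was 9.39, 9.46 and 9.61 in the normoxia controls, 9.58, 9.65, 9.97 and 9.79 in the normoxia + ketamine fetuses, 9.43, 8.93, 9.79, 9.73 and 9.53 in the hypoxia controls, and 9.58, 8.77, 8.90 and 9.22 in the hypoxia + ketamine fetuses. The groups overlapped in both conditions, and neither ketamine difference passed by itself, with 0.26 (standard error 0.20) in normoxia and -0.37 (standard error 0.18) in hypoxia. The interaction was -0.63 (standard error 0.27, limma unadjusted P = 0.033), -0.60 on the overlapping probe and -0.54 on the NR1 probe, and the exact permutation p was 0.030, 0.038 and 0.045. On probe A_70_P002822 the call was lost when any of 8 of the 16 arrays was left out, over a range from -0.78 to -0.51, and on the NR1 probe when any of 10 was. On slide 1 alone it was -0.20 and on slide 2 alone -0.89. The call was also lost on all 3 probes when hypoxia control replicate 1 was read as normoxia + ketamine. Hypoxia control replicate 2 and hypoxia + ketamine replicate 2 were the lowest of their groups on all 3 probes.

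The other glutamate receptor genes gave no call. GRIA1, GRIA2 and GRIA3, which encode AMPA receptor subunits, and GRM5, a metabotropic receptor gene, had interactions of -0.04, 0.11, -0.07 and 0.09, and GRIA4 had -0.33 (limma unadjusted P = 0.0917). Of 20 probes that the files name after glutamate receptors, glutamate transporters or CaM kinase subunits, the NR1 probe was the called one, where 2.41% of all probes were called lower. The 20 ranged from -0.54 to 0.27.

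**Figure D3:**
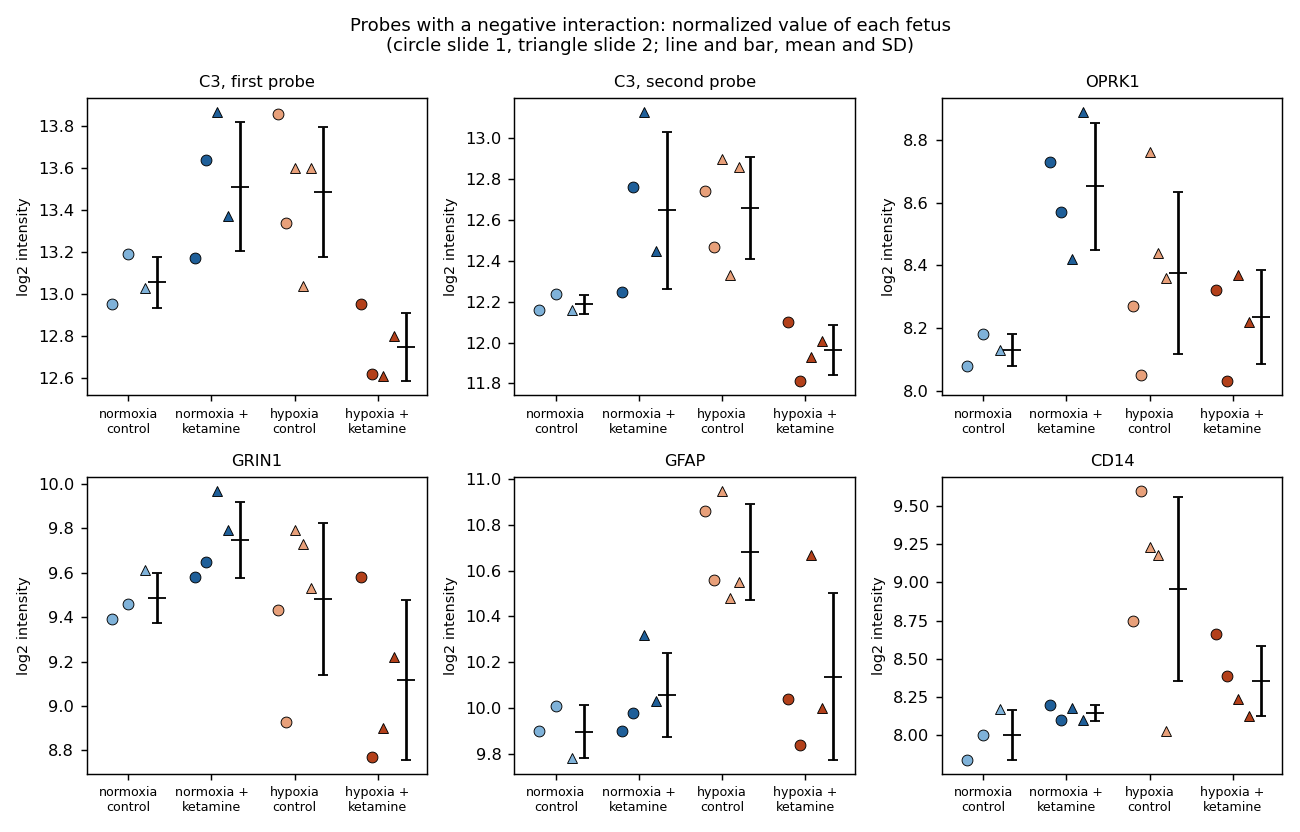
Normalized log2 intensity of each fetus (vertical axis) in the 4 groups for 6 probes with a negative interaction, circles for slide 1 and triangles for slide 2, with the group mean and SD beside the points. On the second C3 probe all 4 hypoxia + ketamine fetuses lie below the 5 hypoxia controls and all 4 normoxia + ketamine fetuses lie above the 3 normoxia controls, whereas GRIN1 overlaps in both conditions.

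GFAP, the intermediate filament of astrocytes that accumulates when these cells react to injury, had an interaction of -0.70 (standard error 0.23, limma unadjusted P = 0.0076, exact permutation p = 0.015). Its values were 9.90, 10.01 and 9.78 in the normoxia controls and 9.90, 9.98, 10.32 and 10.03 in the normoxia + ketamine fetuses, which overlapped. They were 10.86, 10.56, 10.95, 10.48 and 10.55 in the hypoxia controls and 10.04, 9.84, 10.67 and 10.00 in the hypoxia + ketamine fetuses. In hypoxia GFAP was 0.54 (standard error 0.15) lower with ketamine. Of the ketamine fetuses, 3 lay below all hypoxia controls and replicate 3 did not. The normoxia difference was 0.16 (standard error 0.17). On this probe the call was kept with any array left out. Another GFAP probe that shares 57 bases with it had -0.69, or -0.57 and no call without normoxia control replicate 3. Of the other astrocyte markers, AQP4 (-0.12), GJA1 (-0.18) and FGFR3 (0.28) were not called.

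CD14, the co-receptor that hands bacterial lipopolysaccharide to TLR4 and is carried by microglia and macrophages, was 7.84, 8.00 and 8.17 in the normoxia controls, 8.20, 8.10, 8.18 and 8.10 in the normoxia + ketamine fetuses, 8.75, 9.60, 9.23, 9.18 and 8.03 in the hypoxia controls, and 8.66, 8.39, 8.24 and 8.13 in the hypoxia + ketamine fetuses. Its interaction was -0.74 (standard error 0.35, limma unadjusted P = 0.049, exact permutation p = 0.046), at the threshold itself, and the call was lost when any of 12 of the 16 arrays was left out, over a range from -0.97 to -0.58. FCGR1A, the high affinity receptor for IgG, had an interaction of -0.65 (standard error 0.28), which was not called when any of 8 arrays was left out, over a range from -0.77 to -0.52. CD14 was also not called on the authors' values or with only probes well above background. Scaling the background-corrected signal to the 75th percentile ended both calls. CD14 and FCGR1A were the called genes among 5 microglia and macrophage markers on the array, where 2.41% of all probes and 3.41% of named genes were called lower. All 5 were below 0 with a median of -0.29, where 54.7% of named genes and 45.2% of all probes were below 0. The mean log2 level of these 5 genes ranged from 7.95 to 8.13 in the normoxia controls, from 8.08 to 8.33 in the normoxia + ketamine fetuses, from 8.22 to 9.03 in the hypoxia controls and from 8.04 to 8.70 in the hypoxia + ketamine fetuses.

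In the toll-like receptor signaling list, CD14 was the called gene of 29, where 3.41% of named genes were called lower. Of the 29, 24 lay below 0, against 54.7% of named genes, with a median of -0.22. The median ketamine difference of these genes was -0.19 in hypoxia and 0.05 in normoxia. TLR2, a receptor for bacterial lipoproteins, has a pair of probes on either side of the threshold. The brighter, A_70_P050916, had an interaction of -0.43 (limma unadjusted P = 0.053) and the other, A_70_P050917, had -0.55 (0.017), or -0.46 and no call without normoxia control replicate 1. TLR4, the lipopolysaccharide receptor, had -0.32 (0.055), NFKBIA, the inhibitor of NF-kappaB that is itself an NF-kappaB target, -0.97 (0.068), and TNF -0.39 (0.17), where the values in parentheses are unadjusted P.

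Of the transcripts picked for PCR or by name in the original work, 15 were on the array. Of these, 13 had an interaction below 0, against 54.7% of named genes, with a median of -0.39. CD14 was the called one, where 3.41% of named genes were called lower. This list was chosen by the study on these samples and is not independent evidence of its direction. The apoptosis genes BAX and BAD in it had interactions of -0.12 and 0.00, neither of them called.

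The interferon-stimulated list had the lowest median of all lists, -0.83, with 7 of 7 genes below 0 and no call. The spread between fetuses was wide. CXCL10, a chemokine that attracts T cells, was between 7.77 and 9.51 in the normoxia controls and between 7.59 and 9.07 in the normoxia + ketamine fetuses, but reached 11.36, 14.79, 9.84, 15.93 and 12.11 in the hypoxia controls and 7.46, 13.56, 8.98 and 12.99 in the hypoxia + ketamine fetuses. The hypoxia groups overlapped, and its interaction was -1.79 with a standard error of 2.0. The antiviral genes MX2 (-1.77, standard error 1.3) and MX1 (-0.72, standard error 1.1), the ubiquitin-like modifier ISG15 (-2.14, standard error 1.8) and the transcription factor IRF1 (-0.83, standard error 0.70) were alike in this. MX2 was 12.75 and 14.62 in hypoxia control replicates 2 and 4 and at most 10.37 in the other three, and ISG15 was 5.94 in hypoxia + ketamine replicate 3 against 10.07 to 11.85 in the other three. That ISG15 spot had a mean signal of 2117 and a local background of 40348, against 17.5 to 28 on the other arrays, so that 5.94 is the result of the background subtraction and no level of ISG15. With outlying local backgrounds set to the array's median, ISG15 was 11.00 on that array and its interaction -0.86 (standard error 1.4). The ISG15 spot of hypoxia control replicate 4, at 15.99, was saturated. With each array left out, the interaction ranged from -2.87 to -0.90 for ISG15, from -2.32 to -0.91 for MX2, from -1.20 to -0.01 for MX1, from -2.72 to -0.69 for CXCL10 and from -1.20 to -0.50 for IRF1. On slide 1 alone ISG15 had 0.18 and MX1 0.03, and on slide 2 alone -4.55 and -1.50. With the corrected backgrounds the mean level of the list ranged from 8.28 to 10.49 over hypoxia + ketamine fetuses, and the median interaction was -0.86, again with no call.

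Extracellular matrix genes gave the most calls of any list, with 6 of 18 lower, none higher and a median interaction of -0.31, where 2.41% of all probes and 3.41% of named genes were lower. A dimmer probe of the list gene SPP1, not counted, was called higher at 0.21. The median ketamine difference in the list was -0.19 in hypoxia and 0.09 in normoxia, and 13 of the 18 interactions were below 0. The called genes were TIMP3 and TIMP1, which inhibit matrix metalloproteinases, the small proteoglycan DCN (decorin), VIM (vimentin, an intermediate filament of astrocytes, mesenchymal and endothelial cells), ANXA2 (annexin A2, which binds phospholipid and plasminogen activator) and FBLN1 (fibulin 1).

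TIMP3 was 8.48, 8.71 and 8.77 in the normoxia controls, 8.40, 8.98, 8.80 and 8.88 in the normoxia + ketamine fetuses, 9.42, 9.20, 9.03, 9.59 and 9.01 in the hypoxia controls, and 9.05, 8.04, 8.28 and 8.53 in the hypoxia + ketamine fetuses. In hypoxia TIMP3 was 0.78 (standard error 0.18) lower with ketamine, where 3 ketamine fetuses lay below all controls. The normoxia difference was 0.11 (standard error 0.21). The interaction was -0.89 (standard error 0.28, limma unadjusted P = 0.0062, exact permutation p = 0.016), it was -0.86 on slide 1 and -0.87 on slide 2, and its call was kept with any array left out.

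ANXA2 was 11.74, 11.75 and 11.79 in the normoxia controls, 11.59, 11.88, 11.92 and 11.47 in the normoxia + ketamine fetuses, 12.01, 12.19, 12.17, 12.02 and 12.35 in the hypoxia controls, and 11.56, 11.76, 11.70 and 11.50 in the hypoxia + ketamine fetuses. The hypoxia groups did not overlap, which held for 2.34% of all probes, and the normoxia groups did. The interaction was -0.47 (standard error 0.15), from -0.52 (standard error 0.097) in hypoxia and -0.04 (standard error 0.11) in normoxia, and its call was kept with any array left out. VIM had an interaction of -0.62 (standard error 0.25), with a saturated spot on 1 hypoxia control array, and its call was lost with any of 5 arrays left out, from -0.76 to -0.51. TIMP1 had -0.51 (standard error 0.21), from -0.60 to -0.40, and the call was lost without normoxia control replicate 3, normoxia + ketamine replicate 3 or hypoxia + ketamine replicate 4. DCN had -0.71 (standard error 0.32), but its exact permutation p was 0.076 and its call was lost when any of 12 arrays was left out, over a range from -0.93 to -0.57. Another DCN probe had -0.53 and an overlapping TIMP1 probe -0.37, neither of them called.

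DCN is also a marker of meninges, and that list moved between fetuses. The mean log2 level of 8 choroid plexus and meninges genes ranged from 10.39 to 11.33 in the normoxia controls, from 10.21 to 11.08 in the normoxia + ketamine fetuses, from 9.94 to 11.35 in the hypoxia controls and from 9.96 to 10.74 in the hypoxia + ketamine fetuses. Its defining choroid plexus gene TTR had an interaction of 4.17 and its IGF2 one of -1.92, neither of them called (limma unadjusted P = 0.0873 and 0.115). The part of such tissue in the matrix results was not tested. COL2A1, a fibrillar collagen gene named by the files on a cDNA clone, had -0.84 (standard error 0.34), with the call lost without normoxia control replicates 1 or 3, normoxia + ketamine replicate 3 or hypoxia + ketamine replicate 2, over a range from -1.01 to -0.69. MYLK, the myosin light chain kinase of smooth muscle, had -0.73 (standard error 0.28), and -0.65 and no call without normoxia control replicate 3. Another MYLK probe had -0.46 and was not called.

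The probe named C-JUN, an immediate early transcription factor, was 8.76, 8.93 and 8.61 in the normoxia controls, 8.90, 8.89, 9.29 and 9.14 in the normoxia + ketamine fetuses, 9.81, 8.52, 9.89, 9.60 and 8.83 in the hypoxia controls, and 9.02, 8.47, 8.59 and 8.37 in the hypoxia + ketamine fetuses. Its interaction was -1.01 (standard error 0.37, limma unadjusted P = 0.017). A brighter probe on the same cDNA clone, A_70_P016313, had -0.31 (unadjusted P = 0.11), so the C-JUN probes disagreed on the call. VDUP1, the older name of the thioredoxin-interacting protein TXNIP, was 11.09, 10.41, 10.74, 10.70 and 10.15 in the hypoxia controls and 10.10, 9.93, 10.09 and 9.70 in the hypoxia + ketamine fetuses, which did not overlap. In normoxia VDUP1 differed by -0.01 (standard error 0.19), and its interaction was -0.65 (standard error 0.25), or -0.53 and not called without normoxia control replicate 3. A second VDUP1 probe, A_70_P001432, whose longest stretch shared with the first was 5 bases, also had -0.65 but was not called (limma unadjusted P = 0.054). SCD, the desaturase that makes monounsaturated fatty acids, had an interaction of -0.58 (standard error 0.16, exact permutation p = 0.0014), from -0.33 in hypoxia and 0.25 in normoxia. In normoxia its ketamine fetuses, from 8.37 to 8.76, lay above its controls, from 8.21 to 8.35.

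DKC1, a pseudouridine synthase subunit of telomerase and ribosomal RNA processing, had an interaction of -0.84 (standard error 0.30). EIF3A, a subunit of the eukaryotic initiation factor, had -0.68 (standard error 0.29). EIF3A was the called gene among 19 of the ribosome and translation list (median 0.00 after rounding), where 3.41% of named genes were called lower. DKC1 and EIF3A were lowest in hypoxia + ketamine replicate 2, with 9.72 for DKC1 and 11.80 for EIF3A. Hypoxia control replicate 2 was the lowest of its group for both genes. The DKC1 call was kept with any array left out, and the EIF3A call was lost with any of 7, over a range from -0.84 to -0.50. BMP6, a bone morphogenetic protein, had -0.76 (standard error 0.31), and its call was lost with any of 4 arrays left out, over a range from -0.92 to -0.62. CD9, a tetraspanin, had -0.50 (standard error 0.21), KITLG, the ligand of the KIT receptor, -0.46 (standard error 0.20), and IL13RA1, a receptor chain for interleukin 13, -0.46 (standard error 0.20), with calls lost when any of 6, 9 and 6 arrays were left out and ranges from -0.65 to -0.37, from -0.59 to -0.32 and from -0.59 to -0.36. Their other probes had -0.41 for CD9, -0.39 for KITLG and -0.28 for IL13RA1 and were not called.

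In the higher direction, the largest interaction of a called gene with a name was that of EM4C, a transcript that the files describe only by a partial coding sequence. It was 8.87, 8.78 and 9.72 in the normoxia controls and 7.35, 8.24, 7.88 and 8.77 in the normoxia + ketamine fetuses, which did not overlap, and 8.20, 8.65, 7.89, 8.82 and 9.63 in the hypoxia controls and 8.19, 10.31, 9.07 and 9.16 in the hypoxia + ketamine fetuses, which did. The interaction was 1.61 (standard error 0.63, limma unadjusted P = 0.023, exact permutation p = 0.036), from -1.06 in normoxia and 0.55 in hypoxia. It ranged from 1.23 to 1.94 with each array left out, and the call was lost without normoxia control replicate 3, normoxia + ketamine replicate 1 or hypoxia + ketamine replicate 2.

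The probes for T19 followed the same pattern. T19, called WC1 in cattle, is a family of scavenger receptor cysteine-rich proteins on gamma delta T cells of ruminants, encoded by many related genes, so its probes may hybridize with several members. T19 was picked out after its values were seen. Of 5 T19 probes, 4 were called higher, where 3.94% of all probes were, and the 5 ranged from 0.62 to 1.77 with a median of 0.87. The called probes form overlapping pairs, so the calls within a pair are not separate evidence. The pair with the largest interactions is shown, and capitals mark the longest stretch that both probes hold, of 40 bases. Ahead of it both also hold agaaagggga.
T19, probe A_70_P041466: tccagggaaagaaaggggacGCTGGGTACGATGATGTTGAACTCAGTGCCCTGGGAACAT
T19, probe A_70_P041471: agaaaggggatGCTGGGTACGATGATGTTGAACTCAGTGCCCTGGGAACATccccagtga

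On probe A_70_P041466, T19 was 9.07, 8.73 and 9.29 in the normoxia controls and 7.31, 8.07, 7.68 and 8.49 in the normoxia + ketamine fetuses, which did not overlap. It was 7.88, 8.30, 7.69, 8.76 and 9.94 in the hypoxia controls and 7.95, 10.14, 9.29 and 9.21 in the hypoxia + ketamine fetuses, where the spread within each group exceeded the difference between them. The interaction was 1.77 (standard error 0.69, exact permutation p = 0.027), 2.16 on slide 1 and 1.66 on slide 2. It ranged from 1.45 to 2.17 with each array left out and was called each time. A_70_P041471 had 1.73 (standard error 0.64), and the probes named LOC443430, also T19 by their description and sharing 58 bases, had 0.67 and 0.87. Without normoxia control replicate 3 these 3 probes had 1.49, 0.51 and 0.68 and were not called. The LOC443430 probe at 0.67 was also not called without normoxia + ketamine replicate 3 (0.62) or hypoxia + ketamine replicate 2 (0.45). The genes of the T and B lymphocyte list on the array, CD3D, CD3E, CD4 and CD5, gave no call. Their interactions were -0.04, -0.04, -0.1 and -0.54, with a median of -0.07. These were below 0 for 4 of 4, where 54.7% of named genes were, and 2 of the 4 genes were well above background. No clear direction against T19 can be read from these values.

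**Figure D4:**
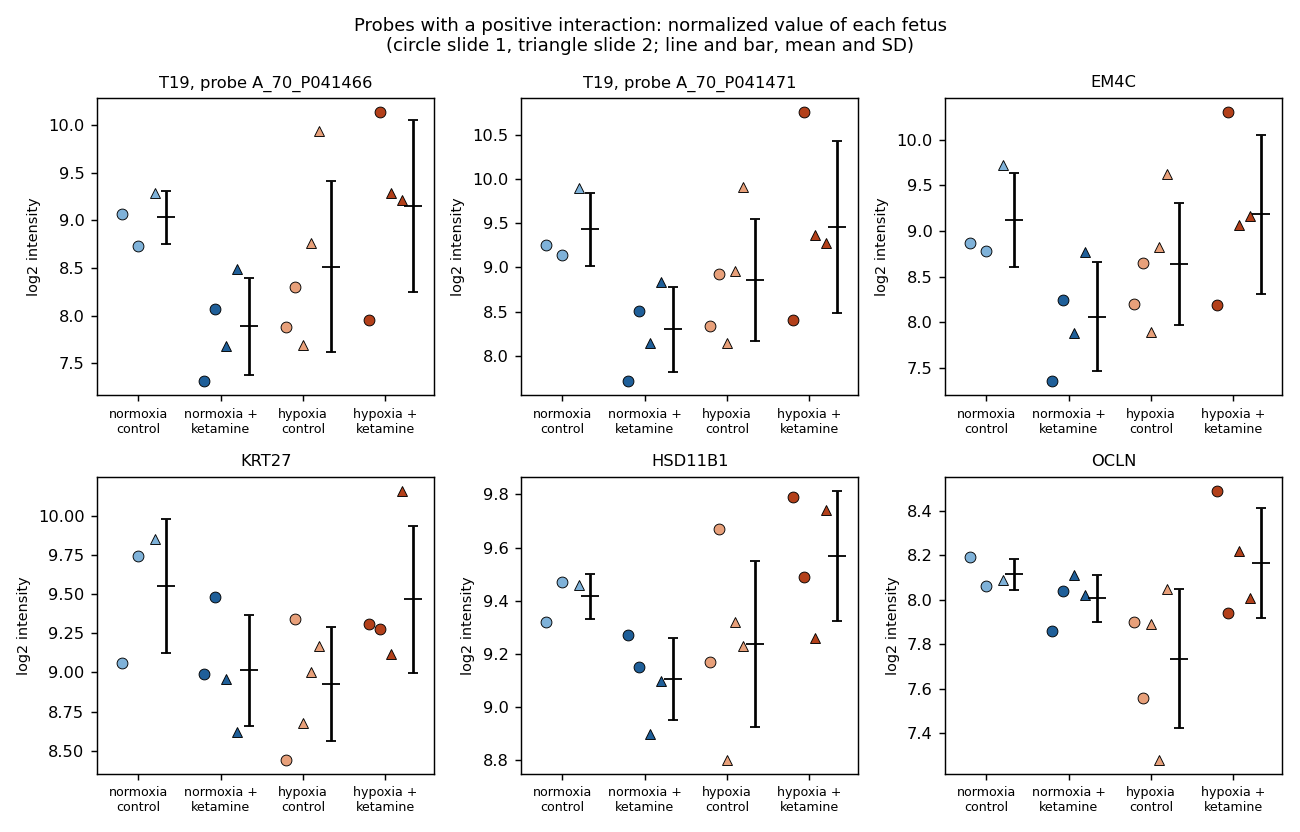
Normalized log2 intensity of each fetus (vertical axis) in the 4 groups for 6 probes with a positive interaction, circles for slide 1 and triangles for slide 2, with the group mean and SD beside the points. On both T19 probes and on EM4C, hypoxia + ketamine replicate 2 is highest and normoxia + ketamine replicate 1 lowest, and in normoxia their ketamine fetuses lie below the controls.

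KRT27, a type I keratin of the hair follicle sheath, was 9.06, 9.74 and 9.85 in the normoxia controls, 8.99, 9.48, 8.96 and 8.62 in the normoxia + ketamine fetuses, 8.44, 9.34, 8.68, 9.00 and 9.17 in the hypoxia controls, and 9.31, 9.28, 9.12 and 10.16 in the hypoxia + ketamine fetuses. The groups overlapped in both conditions, and the interaction was 1.08 (standard error 0.37, limma unadjusted P = 0.011), called with any array left out. V15, a type I wool keratin, had 1.03 (standard error 0.37), but it was well above background on 3 of 3 arrays of normoxia control, 2 of 4 of normoxia + ketamine, 3 of 5 of hypoxia control and 3 of 4 of hypoxia + ketamine, and the call was lost without normoxia control replicate 3, at 0.75. K2.12, described as a keratin of hair, had 0.46 (standard error 0.16). These 3 were named for the size of their interactions, and keratins were not examined as a list.

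HSD11B1, the enzyme that regenerates active cortisol from cortisone, was 9.32, 9.47 and 9.46 in the normoxia controls and 9.27, 9.15, 8.90 and 9.10 in the normoxia + ketamine fetuses, which did not overlap, as held in normoxia for 4.47% of all probes. It was 9.17, 9.67, 8.80, 9.32 and 9.23 in the hypoxia controls and 9.79, 9.49, 9.26 and 9.74 in the hypoxia + ketamine fetuses, which overlapped. The interaction was 0.64 (standard error 0.22, limma unadjusted P = 0.011, exact permutation p = 0.0095), from -0.31 in normoxia and 0.33 in hypoxia, 0.40 on slide 1 and 0.84 on slide 2, and its call was kept with any array left out. A probe on another stretch of HSD11B1, A_70_P051222, was also called, at 0.40.

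The probe that the files name RECEPTOR is described as neuropilin-1, a co-receptor for semaphorins and VEGF, and had an interaction of 0.80 (standard error 0.30), or 0.65 and not called without normoxia control replicate 3. OCLN, which encodes occludin of tight junctions, was 8.19, 8.06 and 8.09 in the normoxia controls, 7.86, 8.04, 8.11 and 8.02 in the normoxia + ketamine fetuses, 7.90, 7.56, 7.89, 7.28 and 8.05 in the hypoxia controls, and 8.49, 7.94, 8.22 and 8.01 in the hypoxia + ketamine fetuses. In hypoxia OCLN was 0.43 (standard error 0.14) higher with ketamine. The interaction of 0.54 (standard error 0.21) was not called without normoxia control replicate 1 or hypoxia + ketamine replicate 1, over a range from 0.42 to 0.61. OCLN was the called gene of 6 on the endothelium and barrier list, where 3.61% of named genes were called higher, and the list median was 0.03. CLMP, an adhesion molecule of cell junctions, had 0.60 (standard error 0.24), from 0.33 to 0.78 with each array left out and not called without normoxia control replicate 3 or hypoxia + ketamine replicate 3. Another CLMP probe that shares 59 of its bases had 0.17 and was not called.

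The remaining higher genes had smaller interactions. EP4a, described only as a partial coding sequence, had 0.54 (standard error 0.19), while its 3 other probes had 0.15, -0.07 and 0.06 and were not called. EEF1E1, a scaffold protein of the aminoacyl-tRNA synthetase complex, had 0.42 (standard error 0.16), or 0.37 and not called without normoxia control replicate 3, and FST, which encodes the activin antagonist follistatin, 0.42 (standard error 0.19), whose call was lost with any of 12 arrays left out, over a range from 0.28 to 0.56. INHA, the inhibin alpha subunit, had 0.36 (standard error 0.12), but 0.09 and no call on a probe that shares 59 bases with it. IL12A, a subunit of interleukin 12, had 0.41 (standard error 0.17), and PSMB7, a catalytic subunit of the proteasome, 0.23 (standard error 0.089). The IL12A call was lost without normoxia control replicate 2, normoxia + ketamine replicate 4 or hypoxia + ketamine replicate 2, over a range from 0.32 to 0.50. PSMB7 was called with any array left out and was lower with ketamine in all 4 normoxia fetuses, from 14.66 to 14.80, than in the 3 controls, from 14.84 to 14.90.

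The interaction was often larger on slide 2 than on slide 1. Slide 2 held 1 normoxia control, replicate 3, so each slide 2 value rests on that fetus and calls there are not counted. Of the 50 called probes with values here, 9 were called on slide 1 alone. The values of the 2 slides were over 1.5 times apart or of opposite sign for 27 probes, and larger in size on slide 2 for 25 of these. DKC1 had -0.43 on slide 1 and -1.15 on slide 2, and C-JUN -0.47 and -1.57. In the higher direction KRT27 had 0.57 and 1.75, CLMP 0.10 and 1.34, and EEF1E1 0.07 and 0.77. KITLG (0.02) and V15 (0.15) were near 0 on slide 1, while on slide 2 the interaction was below 0 for KITLG and above 0 for V15.

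The choice of scaling mattered as well. When the background-corrected signal was scaled to each array's 75th percentile, 28 of the 50 probes were no longer called, among them TIMP3 (-0.52), OPRK1 on A_70_P068271 (-0.26), SCD (-0.13) and PSMB7 (0.12), while C3 (-1.31) and GFAP (-0.75) were. With outlying local backgrounds set to the array's median, 4 of the 50 were not called under that scaling (IL12A, FST, K2.12 and OCLN) and none were lost under quantile normalization.

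Other lists gave no call or lay near the background of all probes. Hypoxia response and glucose uptake genes had 0 calls of 11 with a median of -0.05, immediate early genes 0 of 7 with 0.09, apoptosis genes 0 of 9 with -0.07, heat shock and endoplasmic reticulum stress genes 0 of 9 with -0.01, respiratory chain genes 0 of 4 with 0.03, and kinases and phosphatases 0 of 7 with 0.00. Lists were matched by gene symbol, with the brightest probe of a gene. VDUP1 (TXNIP) and C-JUN therefore lie outside these counts, and the brighter probe of each was not called. Dimmer probes of CITED2 (-0.44, an immediate early gene) and XBP1 (-0.41, a stress gene) were called but not counted. So were those of FGF10 (-0.55, growth factor list), OXTR (0.30, receptor list), SPP1 (0.21, matrix list) and UBE2D2 (0.20, ubiquitin list). Cytokines and their receptors had 1 higher and 2 lower of 28 with a median of -0.08, and growth factor, BMP and Wnt genes had 2 higher and 1 lower of 41 with a median of -0.01. Of markers of blood, 0 of 5 neutrophil genes were called (median -0.12) and 0 of 3 red blood cell genes (median -0.42).

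**Figure D5:**
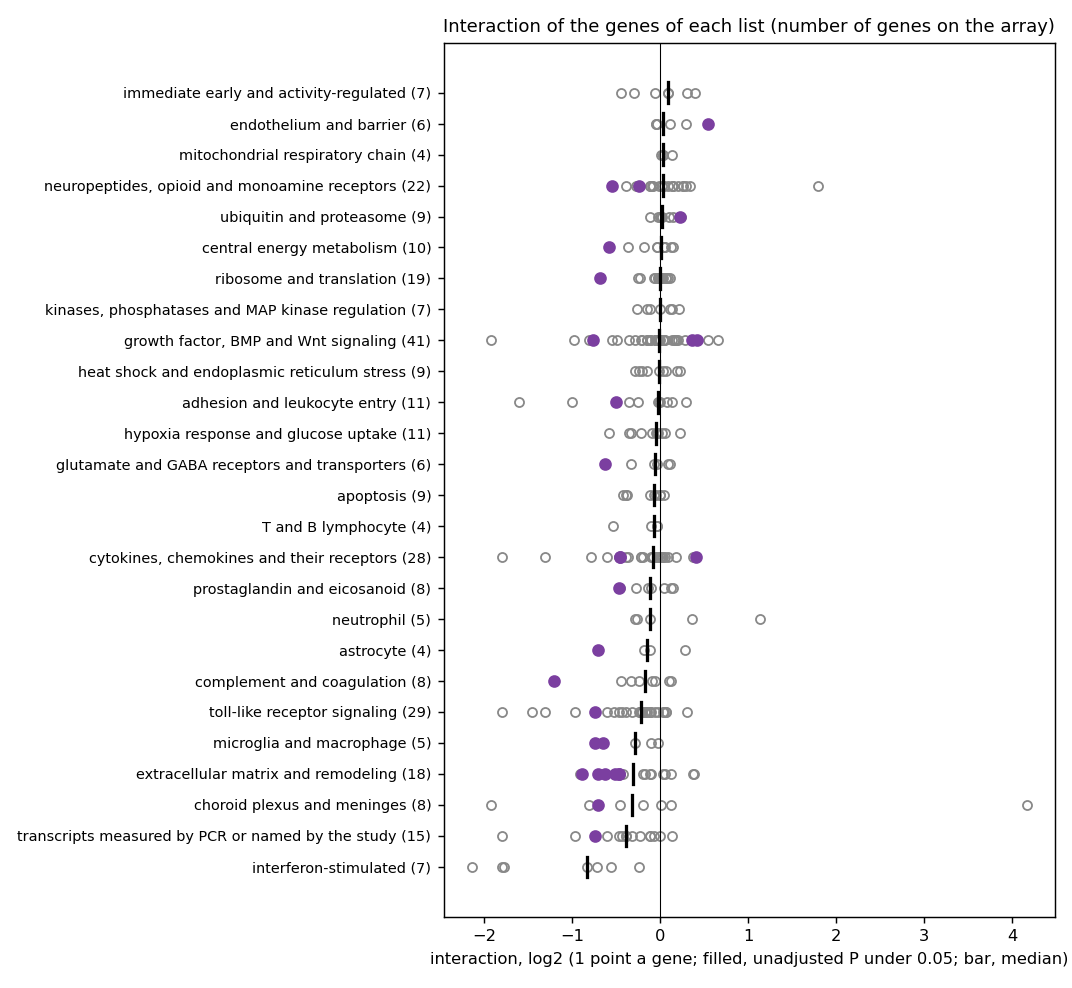
Interaction (log2, horizontal axis) of each named gene in the lists with more than 3 genes on the array, 1 point a gene, filled where the unadjusted P was under 0.05, with the list median as a bar. The interferon-stimulated list has the lowest median (-0.83) without a filled point, and the matrix list has 6 filled points, all below 0.

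Most called probes, 839 of 953, had no gene name. Among those well above background on every array of a group, the largest lower interactions were -1.95 (standard error 0.54) on A_70_P046966 and -1.90 (standard error 0.59) on A_70_P031501, both with normoxia + ketamine fetuses above all normoxia controls and both called with any array left out. On slide 1 alone they had -0.76 and -0.97, and on slide 2 alone -3.06 and -2.70. The largest higher ones were the T19 probe A_70_P041466 described above and A_70_P010976 at 2.19 (standard error 0.97), where the call was lost with any of 10 arrays left out, over a range from 1.79 to 2.59, and which had 0.81 on slide 1 and 3.58 on slide 2.

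Agreement between probes of a gene was limited by the array's design. Among genes with a called probe there were 86 pairs of probes for the same gene, and 41 of these pairs shared 30 or more consecutive bases. In 21 pairs both probes were called, all 21 with the same sign, and 7 of them, C3 included, shared under 30 bases. Of all 45 pairs that shared under 30 bases, 34 had the same sign.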

How the data were processed

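Frontal cortex RNA of 16 fetal sheep was hybridized to 1-colour Agilent sheep arrays, 1 array a fetus. The deposited scanner files hold the spot intensity from Feature Extraction 10.1.1.1 by their headers, while the methods give another version. The authors' own normalized values, also deposited, are in log2 units, made with background correction and quantile normalization (limma, R 2.15.1, per the labels), and served as an alternative.

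In R 4.3.3 with limma 3.58.1, mean signals were corrected with normexp on the median background (offset 50), 536 control spots and 222 flagged spots were left out, and arrays were quantile normalized on the log2 scale. Spots were averaged per probe, for 15008 probes. On at least 1 array 132 of these lacked a value. No dim probe was removed. A linear model over the 4 groups gave the interaction with limma's moderated test, called at an unadjusted P under 0.05 after the study's methods, with Benjamini-Hochberg adjusted P beside it. For single genes a two-sided exact permutation test exchanged ketamine labels within each oxygen condition (4410 arrangements, smaller tail doubled), whose null is no ketamine difference in either condition. The number of arrays limits the precision, and correlations between arrays over probes lay from 0.984 to 0.996. The model was tested on simulated data.

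Names were given to 1656 probes (1025 genes) by accession (726), symbol (498), gene ID (125), older symbol (20) or capitals (13) through a sheep RefSeq table, or kept from the files (274), and 13352 probes had none. Genome positions were not determined here, and probe sequences are those of the scanner files. Named genes were the 12 largest called interactions in each direction on probes well above background in at least 1 group, called probes whose groups were apart in both conditions in opposite directions, up to 4 called members of each list, called cell markers and up to 2 unnamed probes in each direction. The T19 probes, NR1, C5aR and the other glutamate names were added after their values were seen. So were the further probes of named genes, such as C3, OPRK1, GRIN1, C-JUN, TLR2 and HSD11B1, and single uncalled list members. The members and lists were chosen with earlier results of these data known.

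Alternatives were other background corrections and scalings, a filter on dim probes, the authors' values, slide or replicate number as a block, each slide alone, the other reading of hypoxia control replicate 1, array weights, a trended robust spread, adjusted P, 1 probe a gene and each array left out. The deviations of same-numbered arrays from their group means correlated between -0.107 and 0.372 (median 0.0443, 21 pairs), and the labels tie the numbers to nothing shared, so they were not taken as pairs. Spots with an outlying local background were kept, and 30 spots on 5 arrays had one over 2 times the array's median. An alternative with the array's median background for outlying ones, under both scalings, was chosen after seeing the data.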

Additional observations from a re-analysis of the deposited data

Results flagged for a closer look

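The second C3 probe (A_70_P041827) moved in opposite directions in the 2 oxygen conditions, with every ketamine fetus below every control in hypoxia and above every control in normoxia. Its interaction of -1.16 was tested with limma. The exact permutation test adds nothing for this probe, since the separation fixes its p. Among 150 groups of 4 or 5 fetuses over 50 called probes, 5 held a fetus far from its group, where about 1 group in 20 is expected to by the test used. INHA was 7.75 in hypoxia control replicate 4, and IL12A was 7.71 in hypoxia control replicate 5, each above the rest of its group. EEF1E1 was 11.27 in hypoxia + ketamine replicate 4, the keratin probe K2.12 was 7.94 in hypoxia + ketamine replicate 2, and CLMP was 7.86 in hypoxia + ketamine replicate 3, all above the rest of the group.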

How the results depend on the processing

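Of 953 probes called for the interaction, 591 were higher and 362 lower. The count was 183 (96 higher, 87 lower) when the background-corrected signal was scaled to the 75th percentile, where the median interaction of all probes was 0.51 rather than 0.018. With outlying local backgrounds at the array's median, chosen after seeing the data, that scaling gave 1072 (426 and 646) with a median of -0.046, and quantile normalization gave 947 (574 and 373). It was 318 (153 and 165) on slide 1 alone, 72 (37 and 35) with 1 probe a named gene and 0 (0 and 0) after Benjamini-Hochberg adjustment. With each array left out it ranged from 724 to 1125, from 454 to 668 higher and from 270 to 485 lower, and 1 unnamed probe passed adjustment without hypoxia control replicate 5 (adjusted P = 0.032). The other settings stayed within 1.5 times each count. The replicate block gave 1193 (703 and 490) and a lowest adjusted P of 0.299 in limma, and 10 of 16 arrays correlated best with their own number, a hint from the data and not the design. For the 50 called probes with values, 587 of 650 values under other settings kept the sign and the call, 58 kept the sign only and 5 turned, and the 75th percentile scaling without the background change ended 28 of the 50 calls. The 5 were FCGR1A 0.09, TLR2 (A_70_P050917) 0.32, IL13RA1 0.37, KITLG 0.28 and ADRB1 0.65 under that scaling, all but ADRB1 below that setting's median of 0.51. KITLG was also 0.02 on slide 1 alone. The cause of the slide difference was not tested. On slide 1 alone 9 of the 50 probes kept the call, and slide 2, with 1 normoxia control, was not counted. With 1 array left out 651 of 800 values kept the call and none turned. Arrays give no counts, and probes near background, such as V15, limit the size that can be read.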
